A study of Homo sapiens with 28 samples.

Results

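The regions described are the pericentromeric flanks of 17 autosomes, taken as every peak whose centre lay within 5 Mb of a fixed hg38 position at the centromere of chromosomes 1 to 12 and 16 to 20. Across 10 lists of broad ChIP-seq peaks, 169093 of 5000000 peaks were in the flanks, and each list gave between 3.07% and 3.69% of its 500000 peaks. The next 5 Mb outward on each arm, used for comparison, held 312395 peaks. Chromatin immunoprecipitation followed by sequencing (ChIP-seq) recovers the DNA bound by a protein or histone mark, and a peak is a stretch where the ChIP signal exceeds that of a control library. All 10 lists came from U2OS, a human osteosarcoma cell line. Histone H3 dimethylated at lysine 36 (H3K36me2) was mapped in wild-type U2OS without UV (2 lists) and 3 h after 20 J/m2 of UV-C (2 lists), against input DNA. A Flag-tagged carboxy-terminal domain (CTD) of the H3K36 methyltransferase ASH1L was mapped with an anti-Flag antibody without UV (3 lists) and 3 h after the same dose (3 lists). The CTD was expressed from a transfected plasmid with a CMV promoter in ASH1L-/- U2OS cells made with CRISPR-Cas9, and its control was ChIP from such cells given empty vector. It thus occupies chromatin of cells that lack the native protein, whereas H3K36me2 was mapped in cells that have it, so the 2 experiments differ in genotype, antibody and control as well as in target.

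Human centromeres are built on alpha satellite, tandem repeats on which the kinetochore assembles. Around these arrays lie other satellites, segmental duplications and clusters of zinc finger genes, and the chromatin is largely constitutive heterochromatin marked by methylation of H3 lysine 9. H3K36me2 is laid down by the NSD enzymes and ASH1L across euchromatin, in intergenic regions and in parts of genes. In the repair of UV lesions ASH1L acts in global-genome nucleotide excision repair, which has to reach damage in both kinds of chromatin.

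The first sequence shown is the kind that fills the centre of the flanks, and the other 3 are from the highest peaks at 3 h around it. The satellite stretch is at chr18:18202796-18203045 (hg38, plus strand, outside any annotated gene), in the middle of the longest run of chromosome 18 without a robust H3K36me2 peak. Capitals mark the core of the CENP-B box (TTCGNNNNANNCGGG, searched on both strands), the motif bound by the centromere protein CENP-B. In the other sequences capitals mark CpG dinucleotides. At 3 h the highest H3K36me2 site was at chr5:53016993-53019086 in an intron of ITGA2, an integrin subunit gene (chr5:53017890-53018189 shown). For the CTD at 3 h the highest were chr16:31875382-31875774, in an intron of the zinc finger gene ZNF267 (chr16:31875428-31875727 shown), and chr20:30376334-30377691, which overlaps an exon of the pseudogene FRG1BP (chr20:30376863-30377162 shown).
Satellite stretch: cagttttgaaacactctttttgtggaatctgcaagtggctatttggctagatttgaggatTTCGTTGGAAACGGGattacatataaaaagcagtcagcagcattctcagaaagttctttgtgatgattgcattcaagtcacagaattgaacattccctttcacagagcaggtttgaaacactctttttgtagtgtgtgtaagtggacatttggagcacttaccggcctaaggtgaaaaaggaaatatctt
H3K36me2 at 3 h: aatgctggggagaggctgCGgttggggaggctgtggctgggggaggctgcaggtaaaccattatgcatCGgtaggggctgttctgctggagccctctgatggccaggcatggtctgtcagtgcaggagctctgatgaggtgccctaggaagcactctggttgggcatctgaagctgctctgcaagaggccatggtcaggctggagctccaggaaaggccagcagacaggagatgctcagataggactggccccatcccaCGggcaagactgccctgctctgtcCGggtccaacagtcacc
CTD at 3 h, ZNF267: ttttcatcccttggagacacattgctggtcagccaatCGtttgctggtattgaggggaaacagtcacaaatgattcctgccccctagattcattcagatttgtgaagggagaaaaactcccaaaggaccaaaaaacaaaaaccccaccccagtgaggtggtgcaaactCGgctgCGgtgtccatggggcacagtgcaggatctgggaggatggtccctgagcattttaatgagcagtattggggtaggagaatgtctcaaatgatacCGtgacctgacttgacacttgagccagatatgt
CTD at 3 h, FRG1BP: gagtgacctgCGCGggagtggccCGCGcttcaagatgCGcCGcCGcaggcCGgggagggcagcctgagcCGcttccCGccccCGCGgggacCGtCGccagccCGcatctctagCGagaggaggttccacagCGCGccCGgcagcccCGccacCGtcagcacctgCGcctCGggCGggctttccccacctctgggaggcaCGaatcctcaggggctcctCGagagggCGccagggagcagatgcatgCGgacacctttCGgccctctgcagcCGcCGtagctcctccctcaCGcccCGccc

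The satellite stretch was overlapped by 0 peaks of the 10 lists. Its core box recurred 14619 times in that run of chromosome 18, and the most frequent spacings between neighbouring matches were 338 bases (5778 of 14618) and 342 bases (4013). Over 300-base tiles, 65.2% of those in repeat blocks of the flanks held the box, against 0.405% outside the blocks and 0.0085% in the next 5 Mb. Repeat blocks are 50-kb stretches in which over 50% of 24-mers recur. Of the 9122 H3K36me2 sites of the flanks without UV, 3 held the box in their central 300 bases, and 9 of the 11844 CTD sites did. A site here is a set of overlapping peaks of a condition found in at least 2 of its lists.

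The highest sites reached low enrichment. Fold enrichment is the ratio of ChIP to control. Of the 3 highest H3K36me2 sites without UV, the second was chr10:36748102-36749546 (3.35 and 3.32 in the 2 lists) and the third chr6:55950051-55951071 (3.30 and 3.67), both outside annotated genes. At 3 h the ITGA2 site had 3.19 and 3.37, a site overlapping an exon of EYS (chr6:64065956-64066703) 3.06 and 3.25, and a site outside genes at chr3:86796259-86796826 3.28 and 3.06. EYS encodes a photoreceptor protein. All 5 overlapped an H3K36me2 site of the other condition. Of the 3 highest CTD sites without UV, the second and the third had 2.36 and 2.24 (chr10:38736746-38736982) and 2.27 and 2.23 (chr6:60303413-60303650, in an intron of the pseudogene PRIM2BP). At 3 h the ZNF267 site had 2.35 and 2.50, the FRG1BP site 2.35 and 2.53, and a site in an intron of GABRB1, a GABA receptor subunit gene, 2.33 and 2.41 (chr4:47045911-47046206). Each of these 5 CTD sites had a peak in 2 of the 3 lists, and 0 of the 5 overlapped a CTD site of the other condition. Sites were ranked by the lowest value among the lists with a peak, which favours CTD sites found in 2 lists over those in 3. Every H3K36me2 site is in both lists, so these top sites do not compare the experiments in how far sites recur.

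Peaks were less dense in the flanks than in the next 5 Mb, at close to 0.5 times the density. Density was taken from robust peaks, those sharing 1 bp or more with a peak from a further replicate of their condition, per Mbp of sequence without assembly gaps. For H3K36me2 the flanks held 63.97 and 64.7 robust peaks per Mbp without UV, then 63.1 and 63.3 after UV, and the next 5 Mb held 124, 128, 123 and 123. For the CTD the flanks held 61.6, 61.1 and 56.9 without UV and 61.7, 60.7 and 62.2 at 3 h, and the next 5 Mb held 115, 112 and 103, then 118, 117 and 121. In every list the flank was the lower zone. The ratio of flank to next 5 Mb was 0.511 ± 0.00372 (SD, n = 4 lists) for H3K36me2 and 0.531 ± 0.0154 (n = 6) for the CTD. By a two-sided exact sign-flip permutation test of the log2 ratios, p was 0.125 for H3K36me2, the smallest that 4 lists allow, and 0.0312 for the CTD, the smallest that 6 allow. All lists share the same reference, whose repeats lie mostly in the flanks, as given below. A lower flank in every list was thus favoured beforehand, and these p-values show only that the lists share a direction. The CTD ratio was 1.04 times the H3K36me2 ratio (two-sided exact permutation p = 0.0429, where 0.00476 is the smallest possible), a log2 difference of 0.05. This difference did not pass the threshold with all peaks (log2 difference 0.03, exact permutation p = 0.314). Without any 1 of the lists other than the third CTD list at 3 h it kept about its size (0.04 to 0.06) at an exact permutation p between 0.0556 and 0.0833, and without that list p was 0.0238.

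**Figure D1:**
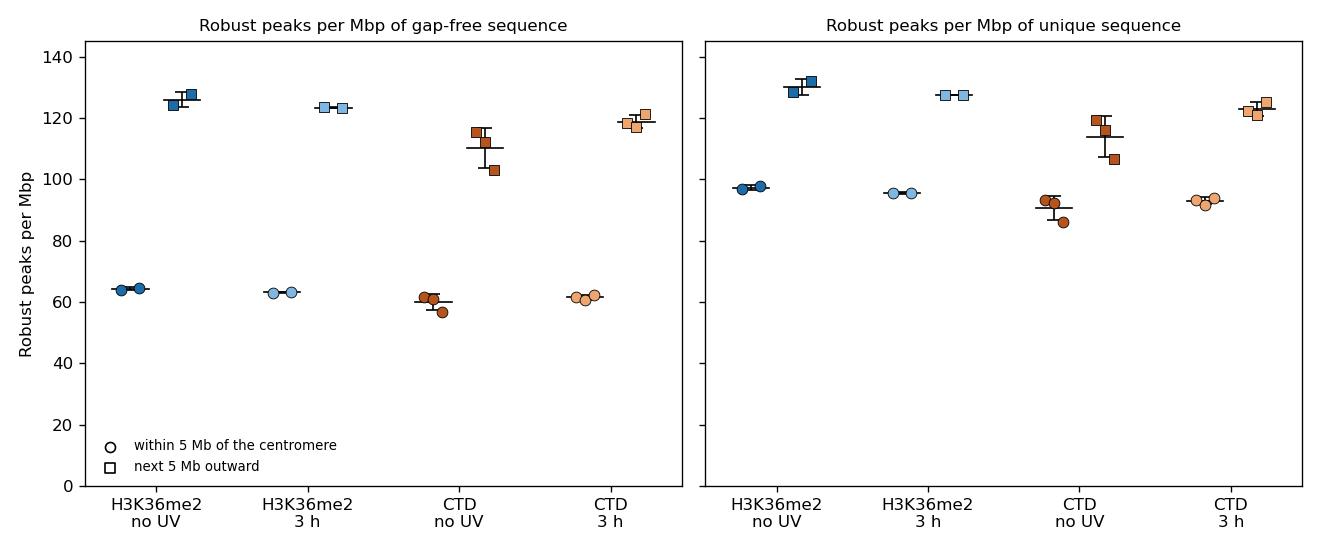
Robust peaks per Mbp in each of the 10 lists, per Mbp without gaps (left) and per Mbp of unique sequence (right). Circles are the flanks, squares the next 5 Mb, and lines with bars the mean ± SD of 2 or 3 lists. All flank points lie below all points of the next 5 Mb of the same experiment, at 56.9 to 64.7 against 103 to 128 on the left.

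Much of this deficit went with the amount of sequence to which reads can be assigned. In the methods of the study, alignments of low mapping quality or in blacklisted regions were removed. Reads from sequence that occurs many times in the genome are thus lost. An absence of peaks there cannot be told apart from an absence of the mark. Unique sequence in blacklisted regions was not set apart, so counts per unique Mbp include it. Of 100-base words sampled every 1 kb, 66.1% of those in the flanks occurred once in hg38, against 96.8% in the next 5 Mb. Repeat blocks made up 45.9 of the 155.8 Mbp of the flanks and 0.05 of the 155.3 Mbp of the next 5 Mb. In these blocks of the flanks, robust peaks numbered 4 or 5 in each H3K36me2 list and between 6 and 10 in each CTD list. Per Mbp of unique sequence the flanks held 96.4 ± 1.09 (SD, n = 4) H3K36me2 peaks against 129 ± 2.13, and 91.8 ± 2.94 (n = 6) CTD peaks against 118 ± 6.59. The ratios were then 0.748 and 0.777 instead of 0.511 and 0.531. The flank was lower in every list under both counts.

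Density rose outward from the centromere over about 4 Mb in both experiments. In the innermost 1 Mb, H3K36me2 without UV had 5.14 ± 0.0866 robust peaks per Mbp (SD, n = 2) and the CTD without UV 5.32 ± 0.107 (n = 3). In the second Mb the values were 31.8 ± 0.176 and 34.5 ± 1.08, and in the third 70.6 ± 0.235 and 70.2 ± 3.34. Just inside the 5-Mb limit (4 to 5 Mb) the H3K36me2 density was 116 ± 1.496 and just outside (5 to 6 Mb) 125 ± 2.33, and the CTD density 101 ± 4.57 and 107 ± 4.83. The steps at the limit are small beside the rise within the flanks. Of the innermost 1 Mb, 23.003% is unique. Counted per Mbp of unique sequence, blacklisted or not, this 1 Mb had 22.3 ± 0.376 H3K36me2 and 23.1 ± 0.467 CTD peaks. The second Mb (49.8% unique) had 63.96 ± 0.354 and 69.3 ± 2.18, and the fourth (88.4% unique) 118 ± 0.955 and 106 ± 5.03. With robust peaks the 2 experiments followed the same course to 3 Mb, and from there to 5 Mb the mean H3K36me2 density was the higher with and without UV. With all peaks per unique Mbp the order was the reverse. Without UV the CTD then had 143 against 107 for H3K36me2 in the second Mb, and 201 against 176 in the fourth. At 3 h the fourth Mb had 195 against 173.

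**Figure D2:**
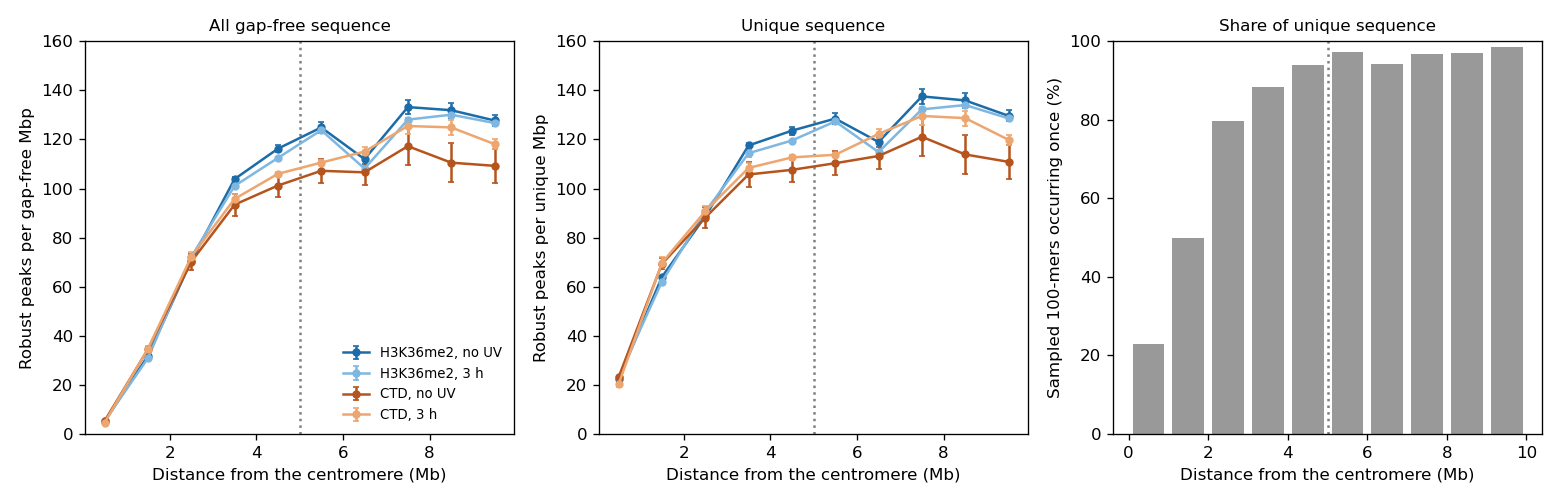
Robust peaks per Mbp by distance from the centromere in 1-Mb steps, over all sequence without gaps (left) and over unique sequence (middle), with the share of unique 100-base words (right). Points are means of the 2 or 3 lists of a condition, bars are SD, and the dotted line is the 5-Mb limit. On the left all 4 curves start between 4.66 and 5.34 per Mbp, and on both they level off beyond 3 to 4 Mb, where the share of unique sequence reaches 88.4%.

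Each chromosome had a central run without any robust peak. For H3K36me2 the longest run within the 17 flanks, over the 4 lists together, had a median of 3.48 Mb (1.81 Mb on chromosome 6 to 5.99 Mb on chromosome 16), and for the CTD, over 6 lists, 3.46 Mb (1.79 Mb on chromosome 6 to 6.14 Mb on chromosome 19). The median run held 0.584 Mbp of unique sequence for H3K36me2 and 0.535 Mbp for the CTD. How much of it is blacklisted was not determined. On chromosomes 9 and 16 the run reached the outer limit of the flank on the q side, where the assembly holds gaps, and its length is cut there, as is the CTD run of chromosome 19 at the p-side limit. On chromosome 18, where the run was 5.59 Mb for H3K36me2, the innermost site without UV on the p side lay at chr18:15387069-15387813, outside annotated genes.

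Peaks that did occur in the flanks resembled those further out. Median fold enrichment of robust peaks was between 1.85 and 1.92 in the 4 H3K36me2 lists and between 1.72 and 1.81 in the 6 CTD lists, and in the next 5 Mb between 1.85 and 1.92 and between 1.72 and 1.81. Median widths were 712 to 814 bp for H3K36me2 and 540 to 641 bp for the CTD in the flanks, against 752.5 to 878 bp and 546 to 648 bp. The deficit was thus one of number, with shorter peaks in each list of the flanks. Strong CTD peaks were rare in both zones. Robust peaks reaching a −log10 p of 3 numbered between 0.0642 and 0.173 per Mbp of the flanks in the CTD lists and between 8.09 and 9.34 in the H3K36me2 lists. Of the H3K36me2 sites without UV in the flanks, 45.6% overlapped a CTD site of the same UV condition, against 45.4% in the next 5 Mb and 37.6% in the rest of the genome. Of the CTD sites of the flanks, 37.7% overlapped an H3K36me2 site, against 39.5% in each of the other zones. At 3 h the shares in the flanks were 40.2% of 9011 H3K36me2 sites and 31.5% of 11954 CTD sites, against 43.2% and 34.6% in the next 5 Mb and 36.1% and 35.1% in the rest of the genome.

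The chromosomes differed widely. Chromosome 4 had the densest H3K36me2 flanks, with a mean of 122 robust peaks per Mbp over the 4 lists, and chromosome 16 the sparsest at 4.62. For the CTD the densest flanks were those of chromosome 8 (99.7 per Mbp over 6 lists) and the sparsest those of chromosome 16 (16.2). Per Mbp of unique sequence the CTD extremes were chromosome 17 (127) and chromosome 3 (41.5), while those of H3K36me2 stayed the same. Among the chromosomes on which the experiments parted were 7 and 9, in opposite directions. The flanks of chromosome 7 held 10.9 H3K36me2 peaks per Mbp against 152 in its next 5 Mb, and 44.5 CTD peaks against 121. Those of chromosome 9 held 35.9 H3K36me2 peaks per Mbp against 102.3, and 20.2 CTD peaks against 163.5. Only 37.5% of the chromosome 9 flanks is unique. Per Mbp of unique sequence they held 95.6 H3K36me2 peaks against 104, a small deficit, and 53.7 CTD peaks against 166. On chromosome 7 these values were 18.1 against 158 and 74.1 against 126. Of the 31 arms with at least 1 Mbp of sequence in both zones, 29 had the lower H3K36me2 density in the flank in all 4 lists, and 26 had the lower CTD density there in all 6. Per Mbp of unique sequence these numbers were 23 and 20, while 8 and 7 arms then had the higher density in the flank in every list. By arm, H3K36me2 was densest on 10p (124 and 127 without UV, 127 and 130 at 3 h) and the CTD on 17q (113, 112 and 99.1 without UV, 108, 111 and 112 at 3 h). The q side of chromosome 16, 1.47 Mbp of which 6.58% was unique, had 0 peaks in any list.

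**Figure D3:**
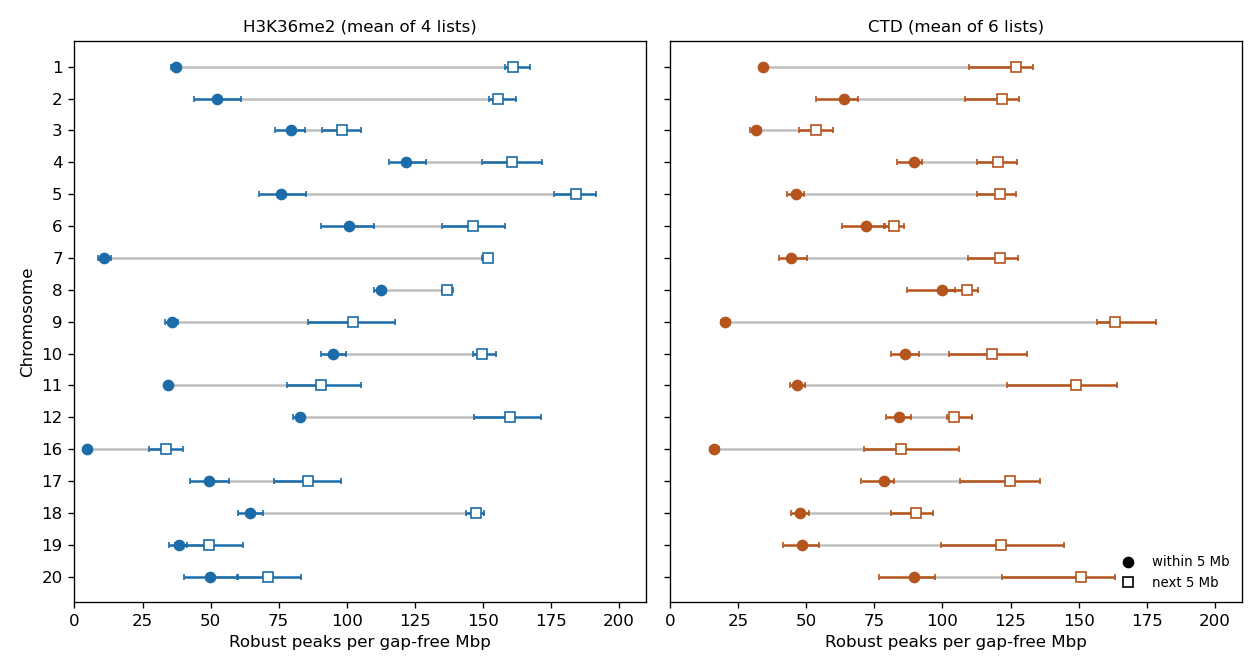
Robust peaks per Mbp by chromosome, in the flanks (filled circles) and the next 5 Mb (open squares), as means of 4 H3K36me2 lists (left) and 6 CTD lists (right). Bars are the range over the lists. The flank lies left of the next 5 Mb on every chromosome, with the widest gap for H3K36me2 on chromosome 7 (10.9 against 152).

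On chromosome 7 the low H3K36me2 density held on both arms. On 7p it was 18.99 and 20.2 per Mbp without UV and 13.5 and 13.3 at 3 h, where the CTD had 62.2, 59.8 and 49.7, then 51.3, 49.3 and 58.8. On 7q it was 5.69 and 6.11 without UV and 4.21 and 4.003 at 3 h, and the CTD had 37.5, 34.3 and 30.1, then 33.7, 31.6 and 33.3. In each list of the CTD both arms lay above all 4 H3K36me2 lists. EGFR, at the outer limit of the p-side flank, stood apart with 48.7% and 44.4% of its span under robust H3K36me2 peaks.

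The p side of chromosome 19 was nearly empty of both. It held 1.21 robust H3K36me2 peaks per Mbp in each list without UV and 2.43 in each at 3 h, and 0 robust CTD peaks in all 6 lists, although 63.98% of its sequence was unique. With all peaks counted, H3K36me2 had 4.25 to 8.50 per Mbp and the CTD 1.62 to 7.49. The q side of the same chromosome (79.0% unique) had 67.3 to 81.2 H3K36me2 peaks and 82.6 to 109 CTD peaks per Mbp, and the next 5 Mb of the p arm had means of 28.1 and 94.6. This block of 19p is made up of Krüppel-type zinc finger genes, whose products bind DNA and many of which repress transposable elements. All 21 of its zinc finger genes of at least 20 kb had 0% of their span under robust CTD peaks, and 19 of 21 had 0% under robust H3K36me2 peaks. The 11 such genes on chromosome 7 were all covered by CTD peaks in part, with medians of 5.66% for 3 genes on 7p and 7.12% for 8 on 7q.

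Of 308 protein-coding genes of at least 20 kb in the flanks, the median gene had 3.88% of its span under robust H3K36me2 peaks, as the mean of 4 lists, and 9.12% under CTD peaks, as the mean of 6. The values for the 767 genes of the next 5 Mb were 4.07% and 10.2%, and over all 11618 such genes 4.26% and 8.79%. Protein-coding genes themselves were fewer, at 3.58 per Mbp against 8.82 in the next 5 Mb. The 47 zinc finger genes (symbols starting ZNF, ZFP, ZSCAN or ZKSCAN) had medians of 0% for H3K36me2 and 4.14% for the CTD, and 24 and 21 of them had no robust peak in any list. Of these, 19 and 21 lay on 19p. With all peaks counted, 14 and 6 of the 47 were at 0%. In the rest of the genome, 275 zinc finger genes had medians of 1.24% and 7.39%, and 92 and 15 of them were at 0% with robust peaks. The 19 genes assigned to families with recent duplicates had medians of 0.267% and 0.805%, and a median unique share of 61.5%. Some of these lie in mostly unique sequence, such as GOLGA7 (97.5%), so the assignment is a loose one. The other 242 genes had medians of 5.99% and 10.2%. For genes in duplicated sequence reads cannot be placed, and their cover may be understated.

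The genes most covered by H3K36me2 were FAM240B on chromosome 9 (mean of 4 lists 51.5%), CHRNB3 (48.5%), which encodes a nicotinic acetylcholine receptor subunit, ANK1 (45.2%), the ankyrin of the red cell membrane skeleton, EGFR (41.6%), the epidermal growth factor receptor, and KSR1 (39.7%), a scaffold of the RAF-MEK kinases. None of these 5 was among the genes most covered by the CTD. Those were GIT1 (22.3% over 6 lists), which encodes an ARF GTPase-activating protein, SLC43A3 (21.0%), a solute carrier gene, ACSS1 (20.9%), which encodes a mitochondrial acetyl-CoA synthetase, SUN5 (20.7%) and ANKRD23 (20.3%). H3K36me2 was at 0% in 65 of the 308 genes (21.1%) with robust peaks, close to the 21.2% of all 11618 genes. With all peaks 26 were at 0%, against 900 of all 11618. The longest of the 65 was PRKDC (chr8:47773111-47960178, minus strand), the catalytic subunit of the DNA-dependent protein kinase that acts in the joining of DNA ends. PRKDC had 0% in all 4 lists although its sequence was all unique, and it lies on an arm with 117 H3K36me2 peaks per Mbp without UV. The CTD covered 9.63%, 8.96% and 10.1% of it without UV and 14.1%, 12.1% and 14.0% at 3 h. The next in length at 0% were ANKRD36C, ZNF98, NBPF26 and RPSA2, with unique shares of 71.8%, 97.3%, 24.6% and 98.3%. For the CTD 33 genes had 0% (10.7%, against 4.67% of all 11618 genes). With all peaks 9 did, against 117 of all 11618. The longest of the 33 were CNTNAP3B, SRGAP2C, ZNF675, ZNF98 and NBPF26. CNTNAP3B and SRGAP2C, copies made by human segmental duplication, had unique shares of 33.3% and 33.2%.

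The number of peaks in the flanks as a whole changed little after UV, while H3K36me2 peaks covered less of the sequence, as they did outside the flanks. For H3K36me2 the mean density went from 64.3 ± 0.486 to 63.2 ± 0.136 robust peaks per Mbp (SD, n = 2 each), a log2 change of -0.03 (two-sided exact permutation p = 0.333, the smallest that 2 against 2 lists allow). For the CTD it was 59.9 ± 2.59 and 61.5 ± 0.768 (n = 3 each), a log2 change of 0.04 (exact permutation p = 0.4, where 0.1 is the smallest possible). The CTD change was -0.04 when all peaks were counted, and 0.14 when an overlap of 50% of the peak was asked for (exact permutation p = 0.1). The share of bases under robust H3K36me2 peaks went from 7.11% ± 0.208 to 6.25% ± 0.0818 (SD, n = 2 each), a log2 change of -0.19, and the lists did not overlap (exact permutation p = 0.333). For the CTD the share was 4.38% ± 0.681 and 4.40% ± 0.149 (n = 3 each). Mean H3K36me2 cover also fell in the next 5 Mb (14.5% to 12.8%) and in the rest of the genome (12.7% to 11.4%). All lists have the same length, so the density of all peaks can rise in one place only if it falls in another. The number of robust peaks is not fixed in this way. The mean robust CTD density also rose in the next 5 Mb (110 to 119) and the rest of the genome (81.7 to 89.7). The ratio of flank to next 5 Mb differed by less than the spread between lists for H3K36me2, with 0.515 and 0.507 before and 0.511 and 0.513 after UV (exact permutation p = 1). The CTD ratio was 0.534, 0.544 and 0.552 before UV and 0.522, 0.519 and 0.513 after it. The 2 groups did not overlap, and the log2 difference of -0.07 had an exact permutation p of 0.1, the smallest possible with 3 against 3. With all peaks the difference was -0.04, the groups overlapped and the exact permutation p was 0.4. With the few peaks of −log10 p of 3 or more it was -0.57.

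Within the flanks the density of H3K36me2 peaks rose on some arms and fell on others after UV. The arms that gained peaks were the poorer in GC. Of 34 flank arms, 11 had higher robust densities in both lists at 3 h than in both without UV, and 19 had lower ones. Over 593 segments of 5 Mb in the whole genome, the lists failed to overlap in the higher direction in 52.3% and in the lower direction in 39% of segments, against 32.4% and 55.9% of the flank arms. The gaining arms had a GC content of 35.8% to 40.5% (median 37.5%), and the losing arms 38.8% to 43.5% (median 40.5%). The largest rise was on 5p, from 41.3 and 41.1 per Mbp to 59.2 and 60.8, among the 30 arms with a mean of at least 5 peaks per Mbp. The largest fall was on 20q, from 57.9 and 54.1 to 30.7 and 31.3. Over these 30 arms the log2 change and the GC content had a Pearson r of -0.77 as a description, and of -0.82 with all peaks. In the 31 arms of the next 5 Mb r was -0.95. The arms share the same 4 lists and are not independent replicates. Whether the libraries differed in GC content was not tested. With all peaks, 11 arms were higher and 16 lower, where 44% and 34.7% of the 593 segments were.

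The CTD changed on fewer arms. Its robust densities were higher at 3 h in all lists on 3 arms (8p, 11q and 12p) and lower on 1 (11p), that is 8.82% and 2.94% of 34 arms, against 39% and 2.53% of the 5-Mb segments of the genome. On 11q they went from 72.2, 71.6 and 68.4 to 75.3, 77.4 and 81.0 per Mbp, and on 11p from 19.8, 17.7 and 18.98 to 17.1, 17.3 and 16.9. With all peaks, 0 arms were higher and 1 (16p) was lower, where 0.506% of segments were in each direction. Across 30 arms r with GC content was 0.26 with robust peaks and 0.46 with all peaks, and across the 31 arms of the next 5 Mb 0.48 and 0.76, of the opposite sign to H3K36me2.

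**Figure D4:**
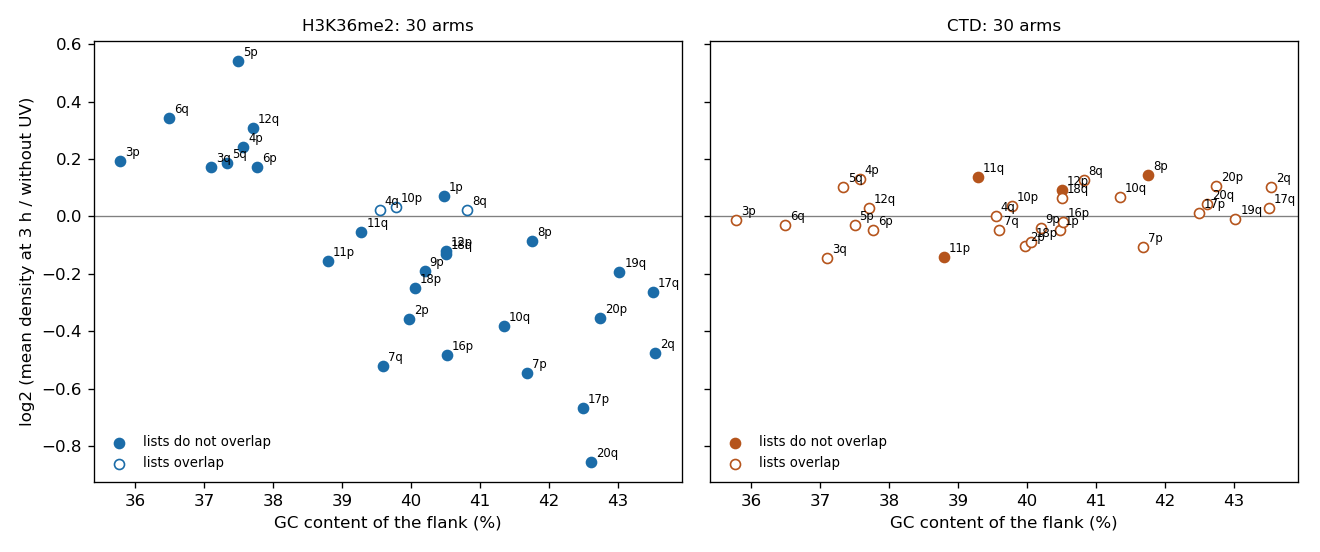
Change of robust peak density at 3 h after UV in each flank arm (log2 ratio of means) against the GC content of the arm, for H3K36me2 (left, 4 lists) and the CTD (right, 6 lists). Filled points are arms whose lists do not overlap between conditions, and arms with fewer than 5 peaks per Mbp are left out. H3K36me2 runs from a rise of 0.54 on 5p to a change of -0.86 on 20q, while CTD arms lie between -0.15 and 0.14.

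The same split was seen in 1-Mb windows, tested with limma over the whole genome on log2 of robust peaks per Mbp plus 1, with Benjamini-Hochberg adjustment. Because a robust peak needs a partner in another replicate, robust counts of replicates are tied to each other, their spread is too small and the p-values are too low, so the fit to all peaks is given beside each call. Of 103 flank windows, 32 gained H3K36me2 peaks (31.1%) and 44 lost them (42.7%) at an adjusted p below 0.05, where 39.8% and 32.9% of all 2719 windows did. With all peaks, 18 and 25 of 110 flank windows were called, against 15.6% and 18.9% of 2814. Of the 32 and 44, 17 and 23 were called in the same direction with all peaks. Leaving out 1 list gave 20 and 33, 22 and 32 (replicates 1 and 2 without UV), 20 and 27, and 19 and 29 (replicates 1 and 2 at 3 h). The gaining windows had a median GC content of 36.5% and the losing ones 43.4%. All 8 windows tested on chromosome 20 and all 6 on chromosome 17 lost peaks, and 7 of 9 on chromosome 6 and 6 of 8 on chromosome 3 gained them.

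In the 3 windows of smallest p the change was smaller with all peaks than with robust peaks. The smallest p belonged to chr20:29000001-30000000, with 28 and 28 robust peaks without UV and 11 and 11 at 3 h (log2 change -1.27, SE 0.00853, limma adjusted p = 0.000197). With all peaks its counts were 53 and 59, then 44 and 32 (log2 change -0.56, SE 0.212, limma adjusted p = 0.0276). In chr19:30000001-31000000 the counts went from 39 and 40 to 20 and 20 (adjusted p = 0.000473, and 0.000304 with all peaks, whose log2 change was -0.70). In chr6:62000001-63000000 they went from 82 and 82 to 128 and 127 (adjusted p = 0.000634, and 5.95e-06 with all peaks, whose log2 change was 0.45). The next windows by p were at 21 Mb of chromosome 17, 31 and 25 Mb of chromosome 20, 29 Mb of chromosome 19 and 43 Mb of chromosome 10, which lost peaks, and 55 Mb of chromosome 11 and 44 Mb of chromosome 5, which gained them. Of these 10 windows, that on chromosome 11 was not called with all peaks (adjusted p = 0.154).

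For the CTD, 4 of 108 flank windows gained and 5 lost robust peaks, where 17.1% and 1.54% of all 2604 windows did. With all peaks, 0 of 112 flank windows were called (1 at an unadjusted p below 0.05), and over all 2762 windows 0% were called in either direction. The smallest p belonged to windows on both sides of the chromosome 4 centromere. In chr4:51000001-52000000 the counts were 26, 32 and 28 without UV and 16, 17 and 16 at 3 h (log2 change -0.77, SE 0.152, limma adjusted p = 0.0038), and in chr4:49000001-50000000 26, 35 and 29 and then 16, 18 and 19 (adjusted p = 0.00531). A gain was called in chr18:23000001-24000000, from 100, 98 and 93 to 118, 132 and 144 (adjusted p = 0.0059). The other called windows were at 89 Mb of chromosome 2, 46 Mb of chromosome 4 and 34 Mb of chromosome 16, which gained, and at 50 Mb of chromosome 11, 56 Mb of chromosome 7 and 60 Mb of chromosome 6, which lost. All 9 had a limma adjusted p of 1.00 with all peaks, and 3 instead of 5 losses were called without replicate 2 of the unirradiated cells.

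More genes of the flanks lost than gained H3K36me2 cover after UV, and most were not called. Among 210 genes of at least 20 kb with a mean cover of at least 1%, 84 lost cover (40%) and 14 gained it (6.67%) by limma on log2 of the percentage plus 1, where 40.2% and 4.64% of all 8097 genes did. With all peaks 35 of 238 lost and 2 gained, against 15.5% and 0.248% of 9272. The counts lost and gained were 20 and 3 without replicate 1 of the unirradiated cells, 19 and 1 without replicate 2, and 67 with 7 or 6 without either list at 3 h. The share of losses in the flanks was close to that of the genome. Of 19 zinc finger genes tested 9 lost and 2 gained, with a median log2 change of -0.68 against -0.32 over the 210 genes and -0.69 over the 143 zinc finger genes tested in the rest of the genome, of which 74 lost. Of 7 genes of duplicated families 1 lost and 0 gained. With all peaks 2 of 23 zinc finger genes lost and 0 gained, and 1 of 8 genes of duplicated families lost.

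The 10 genes with the smallest p all lost cover. MAP2K3, a kinase that activates p38, had 12.2% and 10.7% of its span under robust H3K36me2 peaks without UV and 0% in both lists at 3 h (limma adjusted p = 0.000751, and 0.0174 with all peaks). TSPAN11, a tetraspanin gene, went from 29.7% and 30.6% to 7.15% and 6.26% (log2 change -2.02, SE 0.118, adjusted p = 0.000805). RASGEF1A, a guanine nucleotide exchange factor gene, went from 28.4% and 29.8% to 5.98% and 6.85% (adjusted p = 0.000805). DNMT3B, a de novo DNA methyltransferase gene, had 5.42% and 5.48% and then 0% in both lists. SUN5, LANCL2 and the zinc finger gene ZNF736 also were at 0% in both lists at 3 h, from means of 8.72%, 2.94% and 6.13%. The others were NOL4L (25.95% to 7.37%), FER1L5 (36.5% to 14.8%) and CABLES1. With all peaks, DNMT3B, SUN5, ZNF736 and LANCL2 were not called (adjusted p between 0.133 and 0.277), and the other 6 were (between 0.0151 and 0.0180). The genes at 0% had few peaks to begin with, and no fold is given for them.

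Among all 308 genes, the lists did not overlap between conditions in 47 that were higher and 151 that were lower at 3 h, against 13.4% and 46.7% of all 11618 genes. With all peaks these were 33 and 124, against 8% and 42.5%. The largest losses in percentage points were those of KCNJ12, an inward-rectifier potassium channel gene (38.2% and 52.7% to 21.3% and 15.8%), DUSP15, a phosphatase gene (29.5% and 38.1% to 6.40% and 8.57%), and CABLES1 (45.6% and 38.6% to 17.02% and 17.3%). The largest gains were smaller. HMGCLL1, an enzyme gene of ketone body metabolism on chromosome 6, rose from 7.087% and 7.095% to 16.6% and 17.5% (log2 change 1.15, SE 0.119, limma adjusted p = 0.00190, and 0.0270 with all peaks). FGF10, a fibroblast growth factor gene, rose from 5.53% and 4.72% to 11.5% and 10.4% (adjusted p = 0.00654, and 0.0391 with all peaks), and ABCD2, a peroxisomal transporter gene, from 6.93% and 7.73% to 15.4% and 11.2% (adjusted p = 0.0268, and 0.155 with all peaks). EGFR went from 48.7% and 44.4% to 37.6% and 35.8% (adjusted p = 0.0291, and 0.167 with all peaks). CHRNB3 had 42.7% and 53.4% and then 47.0% and 50.7%, so that its lists overlapped.

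**Figure D5:**
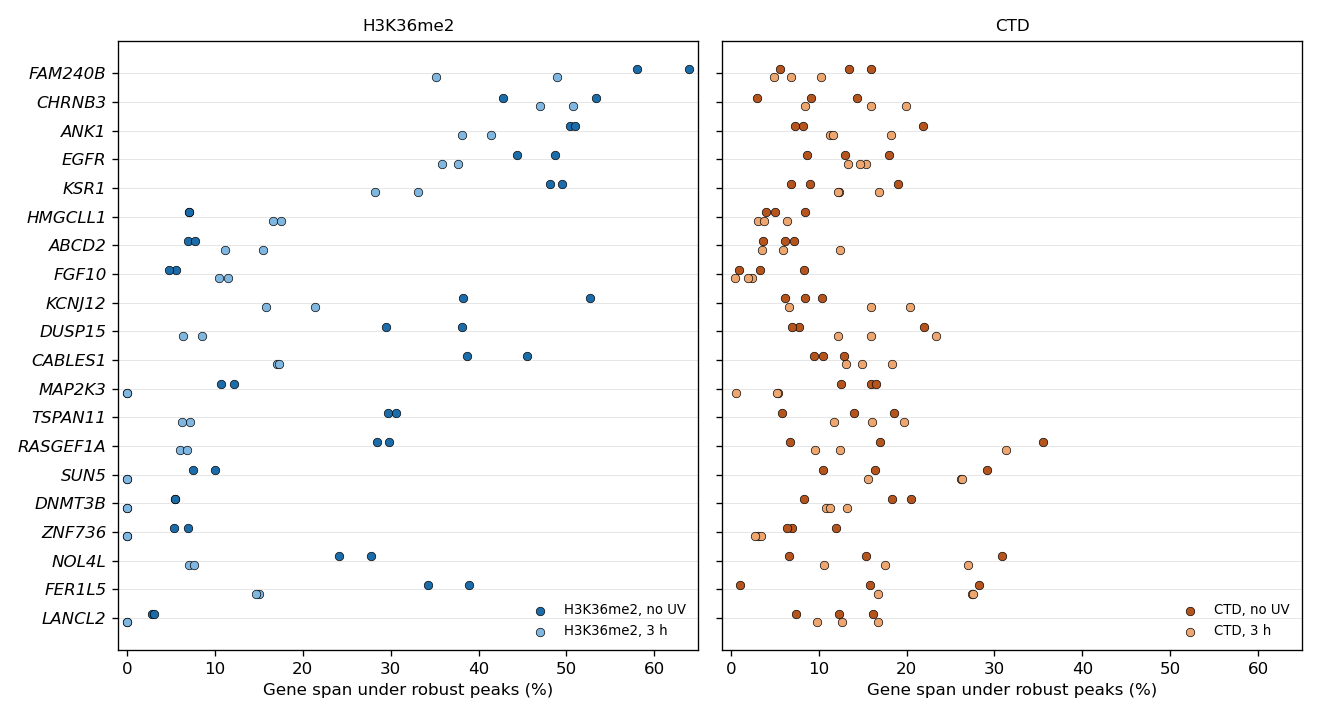
Percentage of the gene span under robust peaks in every list, for H3K36me2 (left, 2 lists a condition) and the CTD (right, 3 lists a condition). Genes are those most covered by H3K36me2, those with the largest rises and falls and those with the smallest p for it. The H3K36me2 points of most genes shift left at 3 h and those of HMGCLL1, ABCD2 and FGF10 shift right, while the CTD points of the 2 conditions overlap for most genes.

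For the CTD, 0 of 269 flank genes passed the threshold in either direction by limma (32 at an unadjusted p below 0.05), where 0.831% and 0.229% of all 10467 genes did. With all peaks 0 of 273 passed (4 at an unadjusted p below 0.05), and 0% of 11094. The lists did not overlap in 33 genes that were higher and 21 that were lower at 3 h, against 15.8% and 5.58% of all 11618 genes. With all peaks these were 5 and 7, against 5.22% and 2.37%. The widest differences were in TMX2, a thioredoxin-related protein gene (9.19%, 7.44% and 9.19%, then 17.3%, 26.6% and 30.7%), BCL2L1, which encodes the anti-apoptotic BCL-XL (21.0%, 5.42% and 5.63%, then 22.1%, 27.5% and 28.9%), and ZNF337 (8.41%, 9.07% and 0%, then 13.5%, 31.9% and 15.2%). In the other direction were C2orf92 (26.8%, 19.8% and 18.8%, then 10.3%, 4.66% and 7.58%), ANKRD13B (29.4%, 18.5% and 12.9%, then 2.70%, 9.05% and 10.6%) and MAP2K3 (15.9%, 12.5% and 16.5%, then 0.589%, 5.42% and 5.27%). ANKRD13B overlaps GIT1, so the 2 share peaks. TMX2 and BCL2L1 had 0% H3K36me2 cover in all 4 lists. The limma adjusted p for these 6 genes was between 0.1003 and 0.289.

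Sites found in one UV condition only were about as frequent in the flanks as elsewhere. Of the H3K36me2 sites without UV in the flanks, 36.5% overlapped no site at 3 h, against 33.6% in the next 5 Mb and 34.1% in the rest of the genome. Of those at 3 h, 33.4% were absent without UV, against 29.5% and 32.5%. For the CTD the shares were higher, at 56.6% without UV and 57.2% at 3 h in the flanks, against 54.8% and 56.8% in the next 5 Mb. H3K36me2 sites of at least 5 kb made up 2.81% of the sites without UV and 1.73% at 3 h, and fell in the same direction in the next 5 Mb (3.12% to 1.97%). The widest H3K36me2 site of the flanks was 20845 bp without UV and 14668 bp at 3 h. The CTD had 34 sites of at least 5 kb in the flanks without UV and 21 at 3 h. These counts pool the lists of a condition and have no test.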

How the data were processed

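ChIP-seq peaks of 4 H3K36me2 and 6 CTD libraries from U2OS cells were read from the lists that the authors deposited, each with 500000 broad peaks. Per the study's methods and the submitters' processing notes, reads were trimmed with Trim Galore 0.6.5, aligned to hg38 with BWA 0.7.17-r1188, and cleared of low mapping quality, duplicates and blacklisted regions, and peaks were called per replicate with MACS2 2.2.7.1 at a lenient threshold. The deposited values are the fold enrichment of ChIP over control, a ratio, and the −log10 p-value of each peak. The lists hold no read counts, so the depth behind a peak is unknown and no counting interval is given. Each list ends at 500000 peaks, and the lowest −log10 p kept was between 1.22 and 1.42.

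Peaks were placed by their centre. Robust peaks, sites, unique sequence (100-base words that occur once, sampled every 1 kb) and repeat blocks were computed from hg38 with Python 3.11.15, numpy 2.4.6 and pandas 2.3.3, and genes were taken from the matching annotation. Means over lists were compared by exact permutation tests. Windows with at least 0.5 Mbp of sequence and a mean of 10 robust peaks, and genes of at least 20 kb with a mean cover of 1%, were fitted genome-wide on a log2 scale with limma 3.58.1 in R 4.3.3, with trend and an offset of 1. The code was tested on simulated data. Per the labels the replicates are biological.

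The named sites were the 3 of highest enrichment in each condition, by the lowest value among the lists with a peak. The first of them without UV in each experiment, and 1 innermost site, are not reported here. The named genes were the 5 most and 5 least covered in each experiment, the 10 of smallest p among those called, and the 3 with the largest rise and fall among those whose lists did not overlap. Named windows and arms followed the same kind of rule, with exceptions chosen after their values were seen. These were chromosome 9, arms 7p, 7q, 19p, 19q, 11p and 11q, and the comparison of zinc finger genes by arm. The regions and gene lists were chosen with earlier results of these data known. Alternatives covered the choice of peaks, the overlap, the −log10 p, the denominator, the weight of arms, chromosomes or lists left out, the offset, the filter and a replicate block. Of these, 3 (unique sequence, repeat blocks, and all peaks over unique sequence) were added after the data were seen.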

Additional observations from a re-analysis of the deposited data

How the results depend on the processing

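The deficit of the flanks against the next 5 Mb kept its direction under all alternatives run (log2 ratios of -1.24 to -0.26 for H3K36me2 and -1.19 to -0.21 for the CTD). The smallest deficits are those without 10-kb bins that held no peak in any list, which shrinks the deficit by construction. With 1 CTD list left out the ratio was -0.926 to -0.904, and 5 lists cannot reach a p below 0.0625. The CTD change of flank density at 3 h turned to -0.0428 with all peaks, per Mbp and per unique Mbp, and to -0.32 with peaks of −log10 p of 3 or more. The H3K36me2 change of the flank ratio, near 0, turned to -0.0012 with 50% overlap, -0.0311 and -0.0418 with −log10 p of 2 or 3 or more, and -0.0094 without chromosomes 1, 9 and 16, and ran from -0.0083 to 0.0160 with 1 list left out. The difference of the CTD ratio from the H3K36me2 ratio lost its call with all peaks (0.0255, per Mbp and per unique Mbp), with −log10 p of 3 or more (0.19), with arms of equal weight (0.0487) and without any 1 list other than the third CTD list at 3 h. With 1 list left out the difference ran from 0.0416 to 0.0629, the highest being without that list. The causes were not tested.

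Over the genome, 1978 H3K36me2 windows were called, 973 with all peaks and 1175 to 1384 with 1 list left out. For the CTD 485 windows were called, 0 with all peaks, 250 with no filter and 258 to 477 with 1 list left out. Of genes, 3635 were called for H3K36me2, 1463 with all peaks and 844 to 2805 with 1 list left out, and 111 for the CTD, 0 with all peaks and 17 to 37 with 1 list left out. With a replicate block the 4 changes at 3 h were -0.03, 0.04, 0.00 and -0.07, and 1830, 386, 3688 and 0 features were called. Same-numbered lists did not deviate together (correlations of -0.327 to -0.0079 over windows). With 2 or 3 lists a condition, deviations from the condition mean are tied to each other, so these values cannot decide whether same-numbered lists were paired. Lists without depth and without reads from repeats limit what can be said of satellite sequence.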
